A study of Caenorhabditis elegans with 2 samples.

Results

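The endoplasmic reticulum stress sensor genes of Caenorhabditis elegans were taken as 4 genes, xbp-1, ire-1, atf-6 and pek-1, selected by name from the 19973 protein-coding nuclear genes of Ensembl release 115 (WBcel235, the ce11 build). Binding of the homeodomain protein DVE-1 near them was read from chromatin immunoprecipitation and sequencing (ChIP-seq) peak lists. There was 1 group, late embryonic hermaphrodites of strain OP398, genotype unc-119(tm4063) III; wgIs398, with 2 biological replicates. The animals express DVE-1 carrying a GFP-FLAG tag at the C terminus from a stable transgene, and both replicates carry the unc-119 mutation. The precipitation used an antibody to GFP on whole animals, so the peaks average over all embryonic cell types. Untagged animals, other stages and animals under stress were not analysed here.

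Proteins that are folded badly in the endoplasmic reticulum set off the unfolded protein response, in which separate sensors in the organelle's membrane signal to the nucleus and to the ribosome. IRE-1 is a kinase and endoribonuclease that cuts an intron out of the xbp-1 mRNA, and the spliced mRNA encodes the active bZIP transcription factor XBP-1. ATF-6 is a membrane-bound bZIP factor whose mammalian counterpart is released by cleavage, and PEK-1, the worm PERK, is a kinase that phosphorylates the translation factor eIF2 alpha. In C. elegans, IRE-1 and XBP-1 drive induction of the BiP gene hsp-4, and animals that lack this branch together with pek-1 fail in development. DVE-1 itself is known from the separate response to misfolding in mitochondria.

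The 4 peak lists were used as deposited, and the signal of a peak is the authors' own enrichment value. The list filtered for reproducibility between replicates (IDR, irreproducible discovery rate, called thresholded below) held 1447 peaks, with signals of 78.9 to 917 and a median of 109.7. The pooled list, made from the combined reads of both replicates, held 30000 peaks and included background, down to a signal of 19.1. The list of replicate 1 held 11568 peaks and that of replicate 2 held 15750. All 1447 thresholded peaks were identical to the strongest pooled peaks. In 1407 of them the summit was the middle of the peak, so a summit marks the centre of a region of about 364 bp. Read totals are not given with peak lists, so depth is unknown, and each signal is a single value with no error of its own.

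DVE-1-GFP had a thresholded summit in the promoter window of xbp-1, ire-1 and atf-6, and none in that of pek-1. The window of a gene took in the 1000 bp before its annotated 5′ end and the first 200 bp after it. These were 3 of the 4 genes, where 4.33% of all 19973 protein-coding genes (865) had a thresholded summit in their window. In the pooled list all 4 genes had a window summit, where 41.5% of all genes did. In replicate 1 it was 3 of 4, where 22.5% of all genes did, and in replicate 2 it was 4 of 4, where 26.8% did. The 3 genes with a summit in both replicates' windows were the same 3, and 16.2% of all genes had one in both. With 4 members chosen by name and with earlier results of these data known, these shares are a description and carry no test.

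The window summits are shown in sequence, because their position and letters are what the results turn on. Each stretch is printed on the gene's own strand, 5′ to 3′, from the RefSeq WBcel235 assembly. For ire-1, atf-6 and pek-1 it holds the strongest window summit and 100 bases on either side of it. For xbp-1, whose summit almost touches the annotated 5′ end, it is of the same length and stops at the base before that end. Capitals mark matches, on either strand, to any of several motifs given below. These are the bZIP core ACGTG with the sites TGACGTG and also TGACGT around it, the stress element parts CCAAT and then CCACG, and the GA repeat GAGAGA. The ire-1 stretch holds none of them.
xbp-1 (chrIII:4193608-4193808, plus strand): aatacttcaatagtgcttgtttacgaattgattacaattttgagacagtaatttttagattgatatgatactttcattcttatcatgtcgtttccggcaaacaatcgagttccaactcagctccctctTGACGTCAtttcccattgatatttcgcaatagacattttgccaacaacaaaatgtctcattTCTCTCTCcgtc
ire-1 (chrII:8124991-8125191, minus strand): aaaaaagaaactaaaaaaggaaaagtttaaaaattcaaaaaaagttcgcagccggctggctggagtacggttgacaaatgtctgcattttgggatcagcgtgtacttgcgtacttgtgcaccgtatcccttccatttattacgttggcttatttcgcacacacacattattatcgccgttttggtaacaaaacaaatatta
atf-6 (chrX:12480615-12480815, plus strand): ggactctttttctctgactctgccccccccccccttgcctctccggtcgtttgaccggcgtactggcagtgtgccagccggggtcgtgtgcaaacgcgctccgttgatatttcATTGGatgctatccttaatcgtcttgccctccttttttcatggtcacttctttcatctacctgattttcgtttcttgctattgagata
pek-1 (chrX:11414962-11415162, minus strand, pooled list only): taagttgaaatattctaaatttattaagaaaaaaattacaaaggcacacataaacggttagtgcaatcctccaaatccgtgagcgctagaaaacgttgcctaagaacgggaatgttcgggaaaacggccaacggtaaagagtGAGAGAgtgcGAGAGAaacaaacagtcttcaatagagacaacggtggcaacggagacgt

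The gene xbp-1 (WBGene00006959, chromosome III, 4193809 to 4195358, plus strand), which encodes the transcription factor of the IRE-1 branch, carried the strongest promoter peak of the 4. Its thresholded peak spanned 4193614 to 4193977 with a signal of 185, rank 185 of 1447. In the pooled list that rank left 0.613% of the 30000 peaks above it. The peak had a signal of 71.3 in replicate 1, at rank 230 of 11568, and of 118 in replicate 2, at rank 162 of 15750. Both replicates thus placed it within the top 2% of their own lists. Of the 865 genes with a thresholded summit in their window, 76 had a stronger one than xbp-1 and 91.1% had a weaker one.

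The xbp-1 summit lay 13 bp upstream of the annotated 5′ end. It lay 6 bp upstream in replicate 1 and 23 bp upstream in replicate 2. The gap of 17 bp between the replicates' summits compares with a median gap of 22 bp over the 1429 thresholded peaks overlapped in both. Among the 865 target genes the median summit lay 264 bp upstream, and 14 (1.62%), xbp-1 included, had theirs within 13 bp of the 5′ end in either direction. That limit is xbp-1's own distance and is smaller than the median gap between replicates. Within 50 bp in either direction it was 52 genes (6.01%). The second annotated transcript of xbp-1 begins 12 bp further downstream, and the start codon of both lies 174 bp from the gene's 5′ end. The peak reached past the 5′ end and ended shortly before that start codon.

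**Figure D1:**
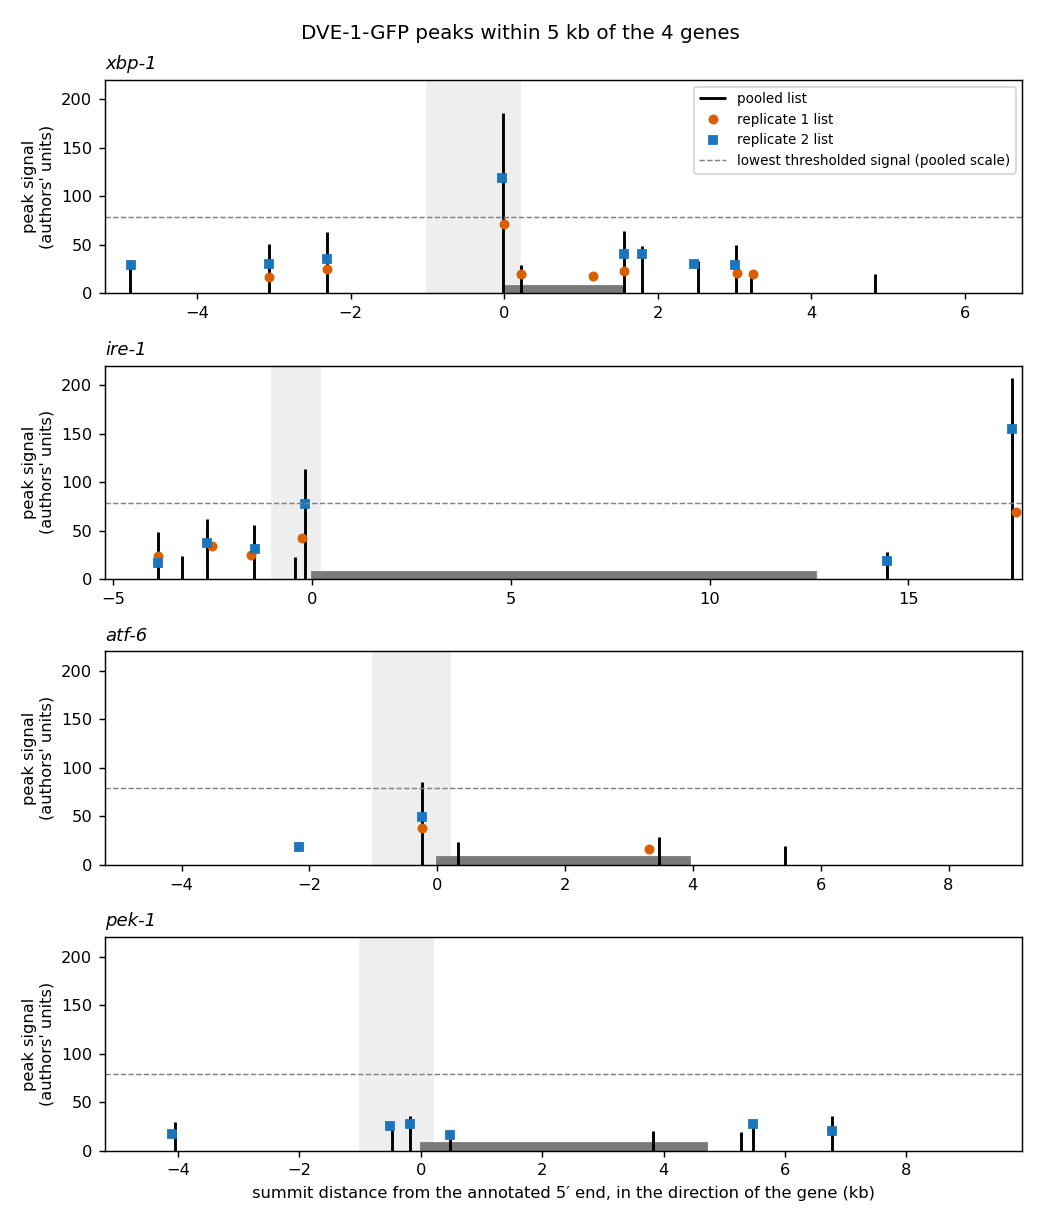
Peaks within 5000 bp of xbp-1, ire-1, atf-6 and pek-1, by distance of the summit from the annotated 5′ end in the direction of the gene (kb) and peak signal in the authors' units. Black lines are pooled peaks, circles replicate 1 and squares replicate 2, the dark bar is the gene, the shaded band its promoter window and the dashed line the lowest thresholded signal, 78.9, on the pooled scale. The window peaks of xbp-1, ire-1 and atf-6 exceed the line, at 185, 113 and 85.1, and pek-1 has no replicate 1 circle at all.

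Several weaker peaks surrounded xbp-1. Within 5000 bp of the gene the pooled list held 11 peaks in 8 separate stretches, and 8 of the 11 were overlapped by peaks of both replicates. That is 0.952 pooled summits per kb, against a median of 0.276 per kb over all protein-coding genes, and 99.7% of genes had fewer per kb. The pooled list includes background, and pek-1, with no thresholded peak, had 0.544 per kb, more than 88.6% of genes. Of the 11 peaks around xbp-1, 3 had their summit in the window of asd-1, the next gene downstream. The strongest of the surrounding peaks, with a pooled signal of 63.75 at rank 2230, had its summit 17 bp past the annotated 3′ end of xbp-1. It had a signal of 22.7 in replicate 1, 14 bp past that end, and of 40.9 in replicate 2, 13 bp past it. A peak of signal 63.1 lay 2306 bp upstream, in an intron of dnj-16. That J-domain protein gene ends 379 bp upstream of xbp-1 on the same strand. This peak and another, 3065 bp upstream, had summits in the window of the ncRNA gene R74.11. The one 3065 bp upstream was also in the windows of dnj-16 and spp-28. A weak peak of signal 29.3, in the coding sequence 215 bp downstream of the 5′ end, overlapped the promoter peak. No peak around xbp-1 other than the one at its 5′ end reached the thresholded list.

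The gene ire-1 (WBGene00002147, chromosome II, 8112243 to 8124910, minus strand), which encodes the sensor that splices xbp-1 mRNA, had a promoter peak of middling strength. The peak spanned 8124909 to 8125272 with a signal of 113, rank 686 of 1447. It had a signal of 42.2 in replicate 1, at rank 931, and of 77.4 in replicate 2, at rank 518. Among the 865 target genes 395 had a stronger summit and 54.2% a weaker one, so ire-1 stood near the median of 108. The summit lay 181 bp upstream of the 5′ end, at 235 bp upstream in replicate 1 and 177 bp upstream in replicate 2. The gap of 58 bp between replicates was wider than at 79.2% of the thresholded peaks, and less than the 90th percentile of 90 bp.

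The ire-1 peak sat at the start of the long transcript alone. A shorter annotated transcript begins 9965 bp into the gene, and no summit of any of the 4 lists lay between the 5′ end and the 3′ end of ire-1, including the span of unc-105, a channel gene nested there on the opposite strand. Upstream the nearest protein-coding gene, ulp-4, a SUMO protease gene on the opposite strand, begins 5049 bp away. Besides the promoter peak, the strongest pooled peaks in that gap lay 1448 bp, 2629 bp and 3861 bp upstream of ire-1, with signals of 55.6, 61.97 and 49.0. Each of these was overlapped by a peak of both replicates and none was thresholded. The one 1448 bp upstream was in the window of the ncRNA gene C41C4.14. Weaker pooled peaks lay 425 bp upstream (signal 22.3), in the ire-1 window, and 3256 bp upstream (24.0), the latter overlapped in neither replicate. The strongest peak within 5000 bp of ire-1 was another thresholded one, of signal 207.5 at rank 135, with its summit 4942 bp past the 3′ end. That summit fell in the windows of chst-1, C41C4.9, the ncRNA gene C41C4.15 and the snoRNA gene C41C4.11, 31 bp upstream of the last, and not in that of ire-1.

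The gene atf-6 (WBGene00000222, chromosome X, 12480948 to 12484904, plus strand), which encodes the membrane-bound bZIP sensor, had a peak in the weaker part of the thresholded list. The peak spanned 12480533 to 12480896 with a signal of 85.1, rank 1251 of 1447, not far above the lowest thresholded signal of 78.9. It had a signal of 37.9 in replicate 1, at rank 1201, and of 49.4 in replicate 2, at rank 1357. Of the 865 target genes 730 had a stronger summit and 15.5% a weaker one. The summit lay 233 bp upstream of the 5′ end, also 233 bp in replicate 2 and 247 bp in replicate 1. The annotated atf-6 transcript begins at its start codon, so the distance to the true transcription start is not known from the annotation.

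Few other peaks were listed around atf-6. The other 3 pooled peaks within 5000 bp had signals of at most 28.5, and none of them was overlapped in both replicates. The strongest of these lay in the 3′ UTR of atf-6, 479 bp before its 3′ end, and in the window of tbc-13, the next gene on the same strand. With 0.287 pooled summits per kb, atf-6 was near the median of all genes, 0.276.

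The gene pek-1 (WBGene00003970, chromosome X, 11410176 to 11414887, minus strand), which encodes the eIF2 alpha kinase, was the gene among the 4 without a thresholded peak within 5000 bp. Its strongest window peak in the pooled list spanned 11414880 to 11415243 with a signal of 35.7, rank 7539 of 30000. The pooled list held 8 peaks within 5000 bp of pek-1, none overlapped in both replicates. The strongest of them, of signal 36.1 at rank 7349, had its summit 2058 bp past the 3′ end, in the window of F08B12.4. In replicate 2 the strongest window peak had a signal of 27.9, at rank 4212 of 15750. Replicate 1 held no peak within 5000 bp of pek-1, and its weakest listed peak had a signal of 15.3. The summit of the strongest window peak lay 175 bp upstream of the 5′ end in the pooled list and 176 bp upstream in replicate 2. A weaker window peak 471 bp upstream had a pooled signal of 27.2, and its replicate 2 counterpart, 507 bp upstream, a signal of 25.5. Of the 8286 genes with a pooled window summit, 57.5% had a weaker one than pek-1. The pooled list includes background, so the pek-1 peaks are values from a list that was not filtered.

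The order by pooled signal was xbp-1, ire-1, atf-6 and pek-1, and each replicate's own list gave the same order for the genes it contains. In replicate 1 the signals were 71.3 at xbp-1, 42.2 at ire-1 and 37.9 at atf-6, with no peak at pek-1. In replicate 2 they were 118, 77.4, 49.4 and 27.9 in that order of genes. On each list's own scale the signal in replicate 2 was higher at each gene, by 1.66 times at xbp-1, 1.83 times at ire-1 and 1.30 times at atf-6, and the median ratio over all 1429 shared peaks was 1.47. The differences between genes were not tested, and with 2 replicates their spread is poorly known.

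**Figure D2:**
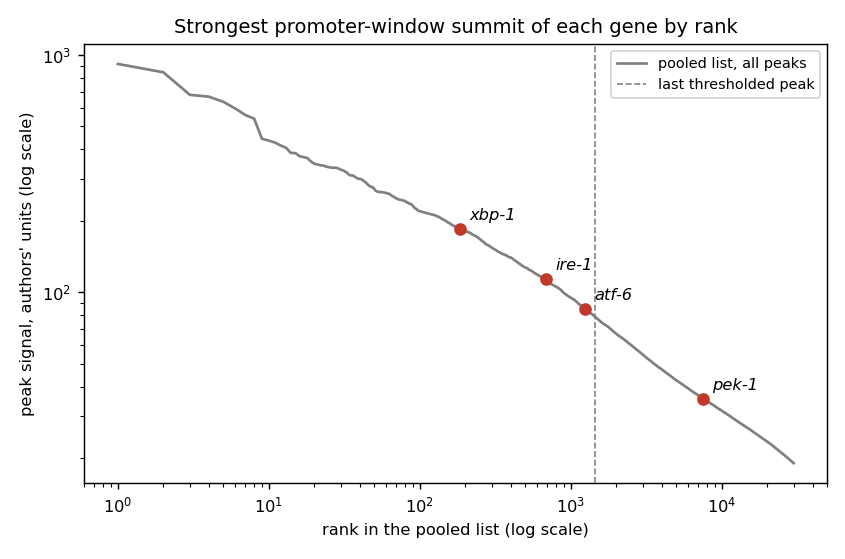
Signal against rank in the pooled list of 30000 peaks, both on log scales, with the strongest promoter-window summit of each gene as a point. The dashed line marks rank 1447, the last thresholded peak; xbp-1 (rank 185), ire-1 (686) and atf-6 (1251) lie to its left and pek-1 (7539) to its right.

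The 3 thresholded summits belonged to single genes. Each lay in the promoter window of its own gene and of no other annotated gene of any type, and in intergenic sequence. Over all 639 thresholded summits in a protein-coding window, 423 (66.2%) were in the window of a single protein-coding gene. The nearest protein-coding genes on either side of the 4 had no thresholded summit in their windows. The nearest tRNA or snoRNA gene was 168728 bp from the xbp-1 summit, 5604 bp from that of ire-1 and 22468 bp from that of atf-6. The telomere repeat unit TTAGGC was absent from the 100 bases on either side of all 3 summits and occurred once around the pooled pek-1 summit.

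The chromosomes differed in how many of their genes had a thresholded window summit. The share was 6.44% on chromosome III, where xbp-1 lies, 4.61% on II with ire-1 and 3.92% on X with atf-6 and pek-1. On X, 41.8% of genes had a pooled window summit, as pek-1 did, and 20.6% had a window summit in replicate 1, as pek-1 did not.

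**Figure D3:**
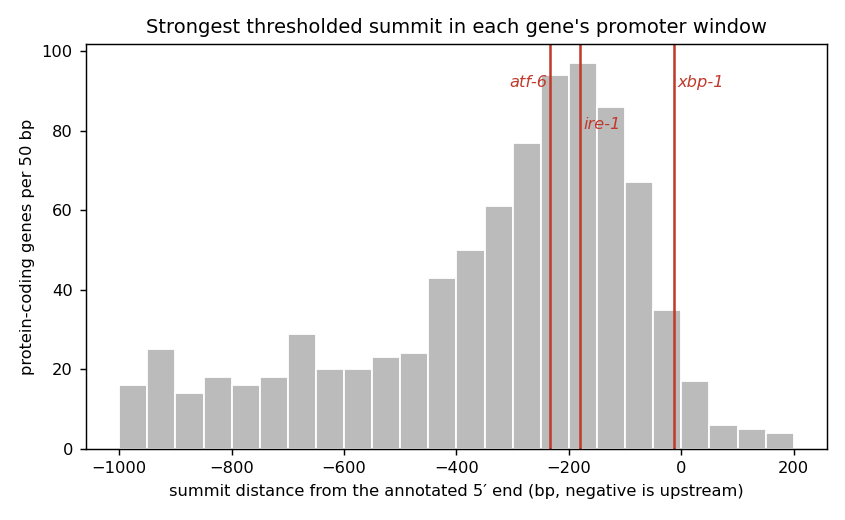
Distance of the strongest thresholded summit from the annotated 5′ end for the 865 protein-coding genes with a summit in their promoter window, in bins of 50 bp, with xbp-1, ire-1 and atf-6 as lines. The ire-1 (181 bp upstream) and atf-6 (233 bp upstream) summits stand in the bulk of the distribution, and xbp-1 (13 bp upstream) at its edge by the 5′ end.

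The letters at the summits differed between the genes. In the summit base and the 100 bases on either side, here called the summit window, the G and C content was 48.8% at xbp-1, 37.8% at ire-1, 51.2% at atf-6 and 41.3% at pek-1. The median was 45.8% over 1440 nuclear thresholded summits and 34.3% over windows of the same length at all protein-coding 5′ ends, which held the 150 bp before the end and 50 bp after it. At xbp-1 a palindrome, TGACGTCA, the full site known for CREB-type bZIP factors, begins 73 bp upstream of the 5′ end and matches TGACGT on both strands. Any match to TGACGT occurred in 5.97% of thresholded windows and 7.06% of windows at 5′ ends. The longer palindrome was not among the motifs counted, so no share is known for it. It lies outside the 50 bases on either side of the summit. The xbp-1 window also held ACGTG on the opposite strand, beginning 1 bp downstream of the 5′ end, and CCACG on the opposite strand, 20 bp downstream, both beyond the printed stretch. ACGTG is the core that XBP1 and related bZIP factors bind in mammals, and 16.9% of thresholded windows and 20.8% of 5′ end windows held it. CCACG, which together with CCAAT makes up the mammalian endoplasmic reticulum stress element, was in 21.1% and 15.97%.

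The other genes held few of these motifs. The atf-6 window had CCAAT on the opposite strand, 13 bp past the summit, a motif in 25.8% of thresholded windows and 33.4% of 5′ end windows. The ire-1 window held TTTGAA, the core of a cell cycle element, on the opposite strand, which was in 24.0% of thresholded windows and 46.8% of 5′ end windows. GA repeats of the form GAGAGA were found at 2 of the 4, as overlapping matches beginning 12 and 10 bp upstream of the xbp-1 5′ end on the opposite strand, and as matches 133 and 123 bp upstream of pek-1. They were in 34.9% of thresholded windows and 15.6% of 5′ end windows. The longer unfolded protein response core TGACGTG was in none of the 4 windows, in 1.81% of thresholded windows and in 2.10% of 5′ end windows. TATAAA, the TATA box, and TTTCAG, a splice acceptor that trans-splicing also uses, were in none of the 4. TATAAA was in 9.51% of thresholded windows and 28.6% of 5′ end windows, and TTTCAG in 12.6% and 41.7%. The ire-1, atf-6 and pek-1 windows stopped 81, 133 and 75 bp upstream of the 5′ end, whereas the 5′ end windows span it. The bases at the 5′ end of these genes were therefore not searched, and absence from the windows says nothing about them. Matches of this length describe the letters only, and ACGTG overlaps TGACGTG.

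The rest of the endoplasmic reticulum stress pathway was followed in a list of 34 genes, of which 10 (29.4%) had a thresholded window summit, where 4.33% of all protein-coding genes did. In the pooled list 24 of the 34 had a window summit, where 41.5% of all genes did. The 34 genes were chosen with earlier results of these data known, so these shares are a description and carry no test. The 10 had a median signal of 119, where the median over all 865 target genes was 108. Between the sensors and their effectors the IRE-1 branch gene rtcb-1, the RNA ligase that joins the spliced xbp-1 mRNA, had no thresholded summit and a pooled signal of 37.6 at rank 6689. In the PEK-1 branch atf-4, a bZIP factor whose mammalian counterpart is translated when eIF2 alpha is phosphorylated, had a thresholded summit of signal 82.3. That summit lay 120 bp upstream and was also in the window of the protein-coding gene WBGene00303075. The strongest window summit of atf-4 lay at -238 bp in replicate 1 and at -67 bp in replicate 2, where negative is upstream. The other eIF2 alpha kinase gene, gcn-2, had a pooled signal of 56.8 at rank 2796, and eif-2alpha had no window summit in the pooled list or in either replicate.

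Chaperone and folding genes of the organelle had a thresholded summit at 6 of 16 (37.5%, where 4.33% of all genes had one). These were pdi-3 (signal 145) and pdi-6 (107.7), both protein disulfide isomerases, crt-1 (137), which encodes calreticulin, and uggt-1 (120), which encodes the glucosyltransferase that marks misfolded glycoproteins. The others were hsp-3 (115), which encodes a BiP chaperone, and enpl-1 (109.9), which encodes the HSP90 of the organelle. The hsp-3 peak had a signal of 26.2 in replicate 1, at rank 2812, and of 97.1 in replicate 2, at rank 283. The other BiP gene, hsp-4, whose transcript is the classic readout of IRE-1 and XBP-1, had no window summit in the pooled list or in either replicate. The pdi-3 summit, 636 bp upstream, also lay in the window of ubql-1, and that of enpl-1 also in the window of imp-2. ncRNA genes were nearer to some of them. The pdi-3 summit lay 26 bp downstream of the 5′ end of VF15C11L.1, and the crt-1 summit 50 bp downstream of that of Y38A10A.8.

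Degradation genes had a thresholded summit at 1 of 11 (9.09%, where 4.33% of all genes had one) and a pooled summit at 5 of 11, where 41.5% of all genes had one. The 1 gene was cdc-48.1, which encodes an ATPase, with a signal of 406 at rank 13 of 1447. Its summit was also 512 bp upstream of a snoRNA gene, C06A1.9. The ubiquitin ligase gene sel-11 and its partner sel-1 had none, and sel-1 had a pooled signal of 22.2. The translocon genes sec-61.G (signal 254, rank 66) and sec-61.B (118) had a thresholded summit, and sec-61.A had a pooled signal of 56.6. The sec-61.G summit also lay in the window of F32D8.13. The sec-61.B summit was shared with trap-3, and lay 334 bp upstream of that gene and 436 bp upstream of sec-61.B. It was also in the windows of the ncRNA genes Y38F2AR.16, 14 bp upstream of it, and Y38F2AR.17. Against this list xbp-1 was exceeded by cdc-48.1 and sec-61.G. The pooled pek-1 signal of 35.7 lay between those of cnx-1 (36.6), which encodes calnexin, and uggt-2 (23.1), neither of which had a thresholded summit.

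**Figure D4:**
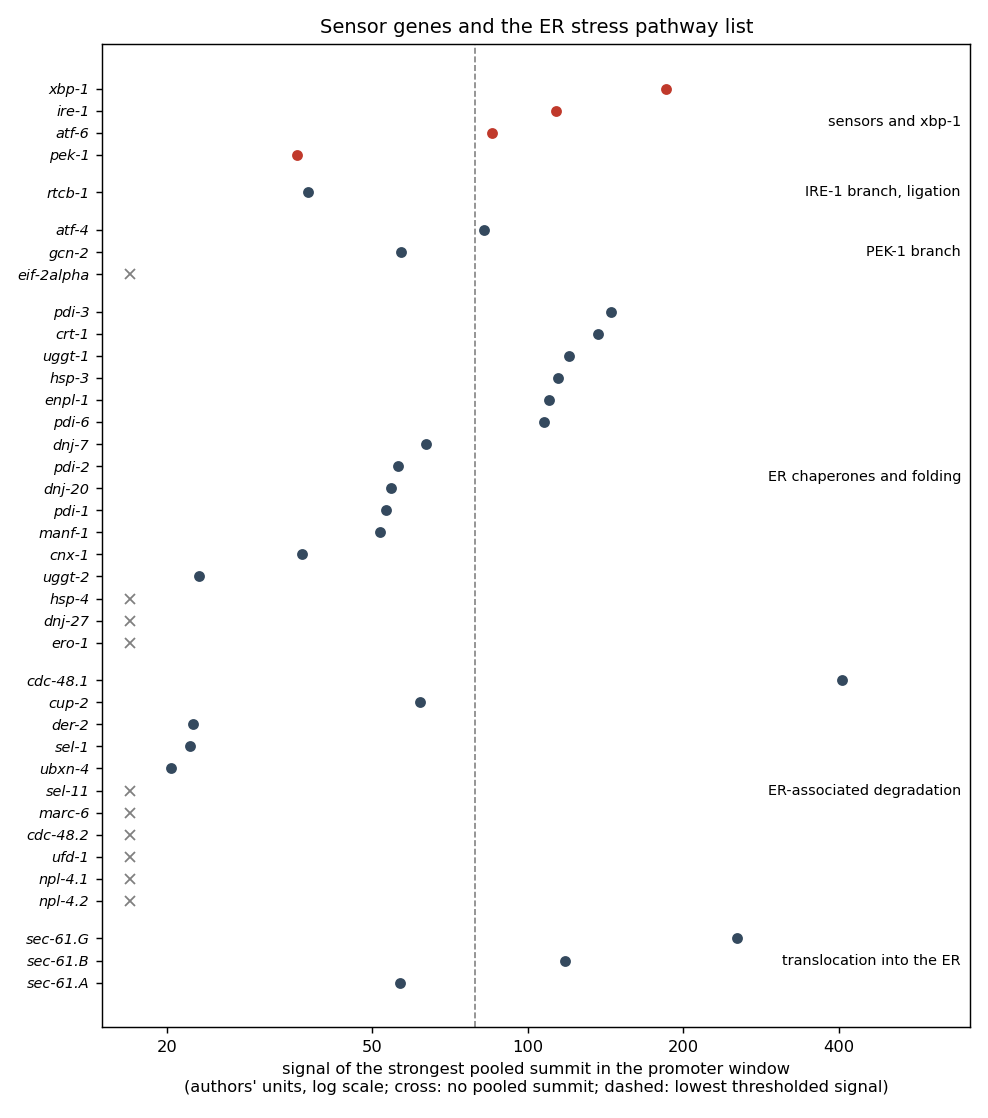
Signal of the strongest pooled summit in the promoter window (authors' units, log scale) for xbp-1, ire-1, atf-6 and pek-1 and for 34 genes of the pathway by role. A cross marks a gene with no pooled window summit and the dashed line the lowest thresholded signal, 78.9; of the 34, 10 lie to its right, led by cdc-48.1 at 406 and sec-61.G at 254.

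The genes whose promoter peaks were most like those of xbp-1, ire-1 and atf-6 were found by the distance between log2 signals in the pooled, replicate 1 and replicate 2 lists, 3 values from 2 replicates. Nearest to xbp-1 was a summit shared by pcrg-1 and E04F6.6, with signals of 190, 71.1 and 120, at a distance of 0.0436. Next came eelo-2, with 191, 72.1 and 117, at 0.0522. Nearest to ire-1 were K02B12.7 (0.0790), the nuclear hormone receptor gene nhr-255 (0.0837) and a summit shared by cct-7, a cytosolic chaperonin subunit gene, and T10B5.4 (0.0851). Nearest to atf-6 were the F-box gene fbxc-19 (0.0215) and a summit shared by akir-1 and E01A2.1 (0.0482). Likeness in 3 signals does not extend to position, as the K02B12.7 summit lay 906 bp upstream and that of ire-1 181 bp upstream. Some of these summits lay nearer to an RNA gene. The K02B12.7 summit was 22 bp downstream of the 5′ end of a tRNA gene, WBGene00014418. That of nhr-255, 528 bp upstream of nhr-255, was 32 bp downstream of the 5′ end of another, WBGene00014626. The pcrg-1 summit was 19 bp downstream of the 5′ end of the ncRNA gene mrpr-1.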

How the data were processed

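Peaks came from lists in the ce11 build deposited by the authors, whose column of signal is their own enrichment value, per the labels and the text descriptions deposited with the lists. Those describe 1 list per replicate, 1 pooled list, 1 list thresholded by IDR, and a control alignment that both replicates share. How reads were aligned, which program called peaks and how the signal was scaled is not given in the sources used here. Lists in ce10 were not used.

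Summits (start plus peak offset, counted from 1) were assigned to genes of Ensembl release 115 on 19973 protein-coding nuclear genes. A peak counted as overlapped with at least 1 bp shared, and signals were ranked only within a list. Sequence came from RefSeq WBcel235, and 9 motifs were matched exactly on both strands. The 4 members, the 34 pathway genes, of which all matched, the motifs and the rule for genes named were chosen with earlier results of these data known. The rule takes the members, genes whose window or body holds a counted summit, neighbours, and pathway genes with a thresholded window summit. It also takes the 3 genes nearest in signal (more where a summit is shared). Pathway genes without a thresholded window summit were named after their values were seen. No hypothesis test was made. Assignment and matching were tested on simulated data. Python 3.11.15, numpy 2.4.6, pandas 2.3.3 and matplotlib 3.10.9 were used.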

Additional observations from a re-analysis of the deposited data

How the results depend on the processing

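The count of 3 members with a thresholded window summit (xbp-1, ire-1 and atf-6) was also 3 with narrower and wider windows (500 bp upstream to 100 bp downstream, 2000 bp upstream to 500 bp downstream), any annotated transcript start, only the nearest gene within 2000 bp, and peaks overlapped in both replicates. The share of all genes with such a summit ranged from 3.29% to 6.19% over these. The count was 2 among peaks above the median signal, without atf-6, where the share of all genes was 2.08%. With the 1447 strongest peaks of a single replicate it was 3 without replicate 1 and 3 without replicate 2. The pathway count of 10 ranged from 8 (nearest gene, or above the median signal) to 10, and was 10 without either replicate. The percent of peaks with a higher signal, in the pooled list and then over the single-replicate lists, was 0.613 and 1.02 to 1.98 for xbp-1, 2.28 and 3.28 to 8.04 for ire-1, 4.17 and 8.61 to 10.4 for atf-6, and 25.1 and 26.7 (replicate 2 alone) for pek-1. For each gene the percent was higher in the single-replicate lists than in the pooled list. Lists differ in length, so these differences are not read as a change in binding. With 50 in place of 100 bases on either side of the summit the matches to TGACGT and TTTGAA dropped out (0 members each), and the other motif counts stayed as they were. No paired analysis was possible because there was 1 group. Peak lists without read totals do not show whether the missing pek-1 peak in replicate 1 reflects depth, which was not tested.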
